A study of Homo sapiens with 6 samples.

Results

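A set of 9 mature miRNAs of 5 genomic loci, out of the 1000 listed in the counts, were picked for large decreases in abundance in HEK 293T cells that lack the terminal uridylyltransferases TUT4 and TUT7. They are hsa-miR-296-5p and hsa-miR-296-3p, hsa-miR-489-3p with hsa-miR-653-5p and hsa-miR-653-3p from the calcitonin receptor gene CALCR, hsa-miR-204-5p from TRPM3, hsa-miR-216a-5p and hsa-miR-217-5p from the lncRNA MIR217HG, and hsa-miR-218-2-3p from SLIT3, named below without the species prefix. They were chosen by their measured change in CPM, the number of counts per 1000000 of a library's total, between the knockout and wild type libraries, so those changes are described here without p-values. HEK 293T is a transformed line of human embryonic kidney cells. One group was the untreated TENT3A/B double knockout (ΔTUT4/7, TENT3A and TENT3B being other names of TUT4 and TUT7), and the other the untreated wild type line, with 3 libraries each. The ΔTUT4/7 cells are a single strain made earlier in another laboratory, so whatever else separates the strains enters every comparison, and a change in all cells cannot be told apart from one in some of them. The counts are of mature miRNAs alone, so the loss of TUT4 and TUT7 mRNA could not be looked for in them.

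A miRNA is cut from a hairpin, which DROSHA releases from a longer transcript and DICER trims to a duplex, and either arm of the duplex, 5p or 3p, may be loaded into an Argonaute protein. Bases 2 to 8 of the loaded arm, the seed, select the target mRNAs. TUT4 and TUT7 add uridines to the 3′ ends of precursors and of mature miRNAs. Many miRNA hairpins lie in introns and are made with their host transcript. Several of the 9 are known for restricted expression: miR-204 is abundant in the retinal pigment epithelium, miR-216a and miR-217 in the exocrine pancreas, and miR-218 in motor neurons. The hairpin of miR-296 lies in the imprinted GNAS region.

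The mature sequences are shown 5′ to 3′ from RefSeq (GRCh38.p14) because the reads were cut to 18 nt before counting, so that each miRNA is known from its first 18 bases alone. Capitals mark the seed.
miR-296-5p: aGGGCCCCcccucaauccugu
miR-296-3p: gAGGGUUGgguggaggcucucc
miR-489-3p: gUGACAUCacauauacggcagc
miR-653-5p: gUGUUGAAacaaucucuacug
miR-653-3p: uUCACUGGaguuuguuucaaua
miR-204-5p: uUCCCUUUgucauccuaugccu
miR-216a-5p: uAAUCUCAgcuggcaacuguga
miR-217-5p: uACUGCAUcaggaacugauugga
miR-218-2-3p: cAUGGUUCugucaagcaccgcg
No seed was shared by any 2 of the 9. Their GC content ran from 31.8% in miR-653-3p to 68.2% in miR-296-3p, around a median of 50.0% over the listed miRNAs. The first 18 bases of all 9 were unique in the list. Compared position by position, without a shift, the nearest other listed miRNA differed from them at 6 to 8 of these bases, except that miR-211-5p differed from miR-204-5p at 2. This measure misses likeness under a shift. With an offset of 1 base, the full miR-218-2-3p and miR-218-1-3p were identical at 18 of 21 bases. All 7 hairpins lie on the minus strand. None of them is among the group II hairpins listed by the study, those taken to need 1 added base for processing by DICER.

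The total count was 4338558 to 7967606 per library, and 1 count was worth 0.126 to 0.230 CPM. The deposited values are estimated read counts written as whole numbers. Of the 1000 miRNAs, 826 had a count above 7 in at least 1 library and were tested together with edgeR's quasi-likelihood test, all 9 among them. A miRNA counted as decreased when its log2 fold change was -1 or lower with a Benjamini-Hochberg adjusted p under 0.05, which held for 112 of the 826 (13.6%). All 9 met this limit, which their choice for large decreases had made likely. All 3 ΔTUT4/7 libraries lay below all 3 wild type libraries for 244 of the 826 (29.5%), and for each of the 9. Counting intervals given below cover counting error only, and floors only that of the ΔTUT4/7 counts.

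Together the 9 miRNAs took 914 ± 57.4 CPM in wild type and 25.4 ± 4.20 CPM in ΔTUT4/7 cells (SD, n = 3 each). Their median log2 fold change was -3.53, beside 0.013 over all tested miRNAs and -1.82 over the 112 called decreased. With miR-218-2-3p, which had no ΔTUT4/7 count, at its bound rather than its fitted value, the median was -3.37. The 2 arms of miR-296 held 731 of the 914 CPM in wild type cells and 3.29 of the 25.4 CPM in ΔTUT4/7 cells. The other 7 together went from 183 ± 37.2 to 22.1 ± 4.05 CPM (SD, n = 3 each).

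**Figure D1:**
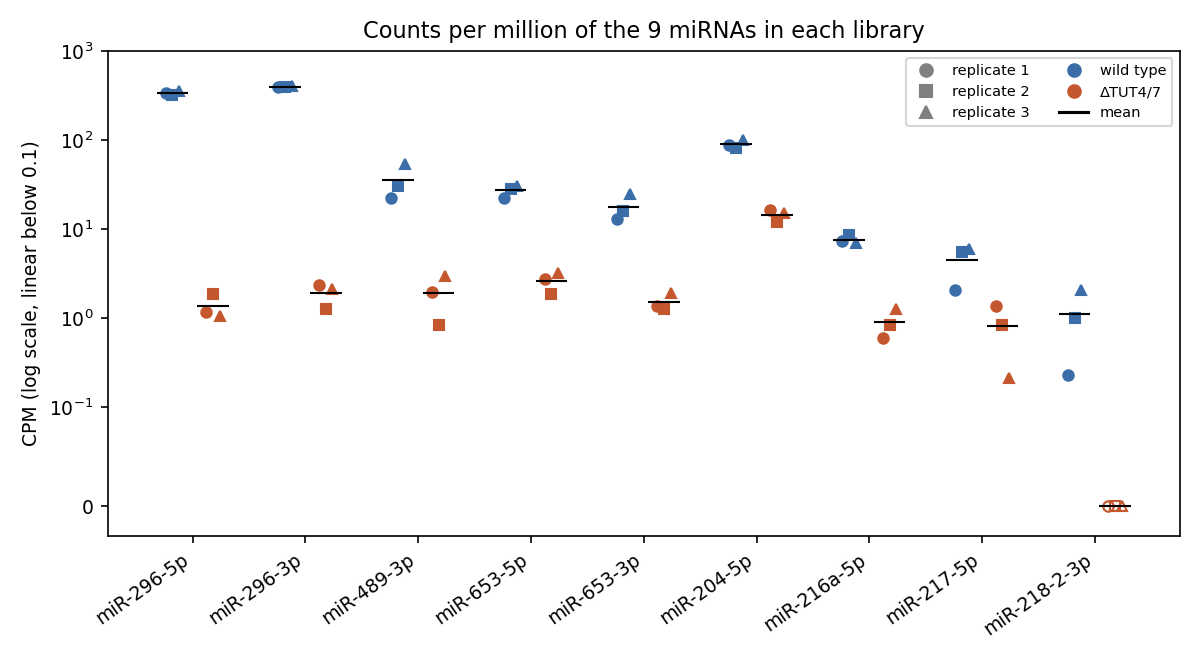
CPM of the 9 miRNAs in each library, on an axis that is logarithmic above 0.1 and linear below it. Points are libraries, marker shapes are replicate numbers, bars are strain means and open points are counts of 0. The ΔTUT4/7 points lie under the wild type points for each miRNA, with the widest gap for both arms of miR-296. The gaps are small for miR-217-5p, at 2.04 against 1.38 CPM, and for miR-218-2-3p, at 0.227 against 0 CPM.

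In hg38 coordinates, the miR-296 hairpin spans bases 58817615 to 58817694 of chromosome 20, inside an exon of the lncRNA ENSG00000268649. The antisense transcript of the GNAS locus, GNAS-AS1, ends 1223 bases away on the same strand as annotated. The hairpin is shown because its 2 arms, in capitals, gave nearly equal counts.
MIR296: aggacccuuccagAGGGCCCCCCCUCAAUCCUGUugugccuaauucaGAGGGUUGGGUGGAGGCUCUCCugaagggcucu
miR-296-5p, a miRNA studied in blood vessel growth, had 332, 321 and 349.9 CPM in wild type replicates 1, 2 and 3, and 1.18, 1.87 and 1.07 CPM in ΔTUT4/7 replicates 1, 2 and 3. These rested on 1467, 2561 and 1518 counts in wild type cells and on 6, 9 and 5 in ΔTUT4/7 cells. The wild type libraries thus lay within 1.09-fold of each other, while 0.410% of the wild type mean was left in ΔTUT4/7 cells. The log2 fold change was -7.90 with a standard error (SE) of 0.25. Since 20 counts stand behind the ΔTUT4/7 level, the ratio of pooled rates, 242, has a 95% counting interval of 156 to 396. miR-296-3p had 388, 396 and 405 CPM in the wild type and 2.37, 1.25 and 2.13 CPM in the ΔTUT4/7 libraries, a log2 fold change of -7.67 (SE 0.25).

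No change in the proportion of the 2 arms could be seen, with few counts left in ΔTUT4/7 cells. The 5p arm took 46.1%, 44.8% and 46.4% of the miR-296 counts in wild type replicates 1, 2 and 3, below the share of the 3p arm in each. In ΔTUT4/7 replicates 1, 2 and 3 the 5p arm took 33.3%, 60.0% and 33.3%. Over these libraries it took 20 of 48 counts, or 41.7% (exact 95% binomial interval 27.6% to 56.8%). This interval holds the pooled wild type share of 45.6% but is too wide to show that the share was kept. These arms had the largest and second largest fitted decrease of the 826 miRNAs, at ranks 1 and 2. In wild type cells they ranked 130 and 121 by abundance among the 1000 listed.

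The CALCR hairpins lie on chromosome 7, miR-653 from 93482760 to 93482855 and miR-489 from 93483936 to 93484019, 1080 bases apart in introns of CALCR and on its strand. CALCR encodes the receptor for the hormone calcitonin, and miR-489 is known for keeping muscle stem cells quiescent. Both hairpins are shown, with the counted arms in capitals, since they lie in 1 host gene and gave unlike spreads between libraries.
MIR489: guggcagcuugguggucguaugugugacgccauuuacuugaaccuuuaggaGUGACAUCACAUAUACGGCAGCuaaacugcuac
MIR653: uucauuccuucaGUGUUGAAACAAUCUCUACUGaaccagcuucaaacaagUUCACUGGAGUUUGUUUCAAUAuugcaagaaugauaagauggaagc
miR-489-3p had 21.99, 30.1 and 54.2 CPM in wild type replicates 1, 2 and 3, and 1.97, 0.832 and 2.99 CPM in ΔTUT4/7 replicates 1, 2 and 3. The wild type libraries alone spanned 2.46-fold, with replicate 3 highest, and the groups did not overlap. Its log2 fold change was -4.18 (SE 0.44), or 18.4-fold lower.

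miR-653-5p had 22.4, 28.2 and 30.7 CPM in the wild type and 2.76, 1.87 and 3.20 CPM in the ΔTUT4/7 libraries, a log2 fold change of -3.37 (SE 0.27). miR-653-3p had 12.9, 15.9 and 24.7 CPM in the wild type and 1.38, 1.25 and 1.92 CPM in the ΔTUT4/7 libraries, a log2 fold change of -3.53 (SE 0.35). The 2 arms were thus left at 9.63% and 8.50% of their wild type means. The 5p arm took 61.1% of the miR-653 counts in the wild type libraries (exact 95% binomial interval 57.5% to 64.6%) and 63.3% in the ΔTUT4/7 libraries (49.9% to 75.4%). Across the 2 hairpins, miR-489-3p took 55.6% of the counts on it and miR-653-5p in wild type cells (exact 95% binomial interval 52.5% to 58.7%). In ΔTUT4/7 cells it took 42.4% (30.3% to 55.2%), and the intervals overlap. For 100 counts of miR-653-5p there were 98.0, 107 and 177 of miR-489-3p in wild type replicates 1, 2 and 3, and 71.4, 44.4 and 93.3 in ΔTUT4/7 replicates 1, 2 and 3, where single libraries held 4 to 14 counts of miR-489-3p.

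The miR-204 hairpin lies on chromosome 9 from 70809975 to 70810084, in an intron of TRPM3 and on its strand. TRPM3 encodes a cation channel. miR-204-5p had 86.6, 81.0 and 100.3 CPM in the wild type and 16.4, 11.9 and 14.9 CPM in the ΔTUT4/7 libraries. Its libraries lay close together in both strains, and it kept the highest level of the 9 in ΔTUT4/7 cells, 14.4 ± 2.30 CPM (SD, n = 3). The log2 fold change was -2.63 (SE 0.20), or 6.21-fold lower, with 210 counts behind the ΔTUT4/7 level.

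The miR-216a and miR-217 hairpins lie on chromosome 2, from 55988950 to 55989059 and from 55982967 to 55983076, 5873 bases apart in introns of MIR217HG. miR-216a-5p had 7.25, 8.66 and 6.91 CPM in the wild type and 0.591, 0.832 and 1.28 CPM in the ΔTUT4/7 libraries, a log2 fold change of -3.07 (SE 0.36). miR-217-5p had 2.04, 5.52 and 5.99 CPM in the wild type and 1.38, 0.832 and 0.213 CPM in the ΔTUT4/7 libraries. The gap between the lowest wild type and the highest ΔTUT4/7 library was narrow for miR-217-5p, at 9 counts in wild type replicate 1 and 7 in ΔTUT4/7 replicate 1. Its log2 fold change was -2.45 (SE 0.56), and it ran from -3.07 without ΔTUT4/7 replicate 1 to -2.03 without ΔTUT4/7 replicate 3. With limma-trend on log2(CPM + 1) it was -1.57. Of the counts on these 2 miRNAs, miR-216a-5p took 62.4% in wild type cells (exact 95% binomial interval 55.5% to 69.0%) and 52.0% in ΔTUT4/7 cells (31.3% to 72.2%), where 25 counts were left. The 3p arm of miR-216a, outside the 9, had 1, 7 and 3 counts in wild type replicates 1, 2 and 3 and none in ΔTUT4/7 cells. With its wild type mean taken as measured, it was at least 2.91-fold lower against a floor of 3 counts over the 3 ΔTUT4/7 libraries, or 0.206 CPM. Without ΔTUT4/7 replicate 1 this bound was 1.90-fold. Neither bound covers the counting error of the wild type counts. The arm was not tested because no count was above 7.

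The miR-218-2 hairpin lies on chromosome 5 from 168768146 to 168768255, in an intron of SLIT3 and on its strand. SLIT3 encodes a secreted ligand of the ROBO receptors that guide axons. miR-218-2-3p was the rarest of the 9, with 1, 8 and 9 counts in wild type replicates 1, 2 and 3, or 0.227, 1.00 and 2.07 CPM, and no count in any ΔTUT4/7 library. With its wild type mean taken as measured, it was at least 5.35-fold lower against the same floor. Without wild type replicate 3, which was the highest, this bound was 2.99-fold. Neither bound covers the counting error of its few wild type counts. Its fitted log2 fold change, -5.53 (SE 1.56), depends on how a count of 0 is treated and gives no size.

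In wild type cells the 9 miRNAs fell into an order of 396 ± 8.48 CPM for miR-296-3p, 335 ± 14.3 for miR-296-5p, 89.3 ± 9.93 for miR-204-5p, 35.4 ± 16.7 for miR-489-3p, 27.1 ± 4.22 for miR-653-5p, 17.8 ± 6.10 for miR-653-3p, 7.61 ± 0.926 for miR-216a-5p, 4.52 ± 2.16 for miR-217-5p and 1.10 ± 0.928 for miR-218-2-3p (SD, n = 3 each). The library ranges of neighbours in this order overlapped for miR-489-3p with miR-653-5p, miR-653-5p with miR-653-3p, and miR-217-5p with miR-218-2-3p. In ΔTUT4/7 cells miR-204-5p came first, above the range of the next, miR-653-5p with 2.61 ± 0.676 CPM. From there to miR-217-5p, with 0.808 ± 0.584 CPM (SD, n = 3 each), every neighbour in the order overlapped the next, and both miR-296 arms lay among them. Of the 9, 7 were above 6.87 CPM in wild type cells, the median wild type level of the tested miRNAs.

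**Figure D2:**
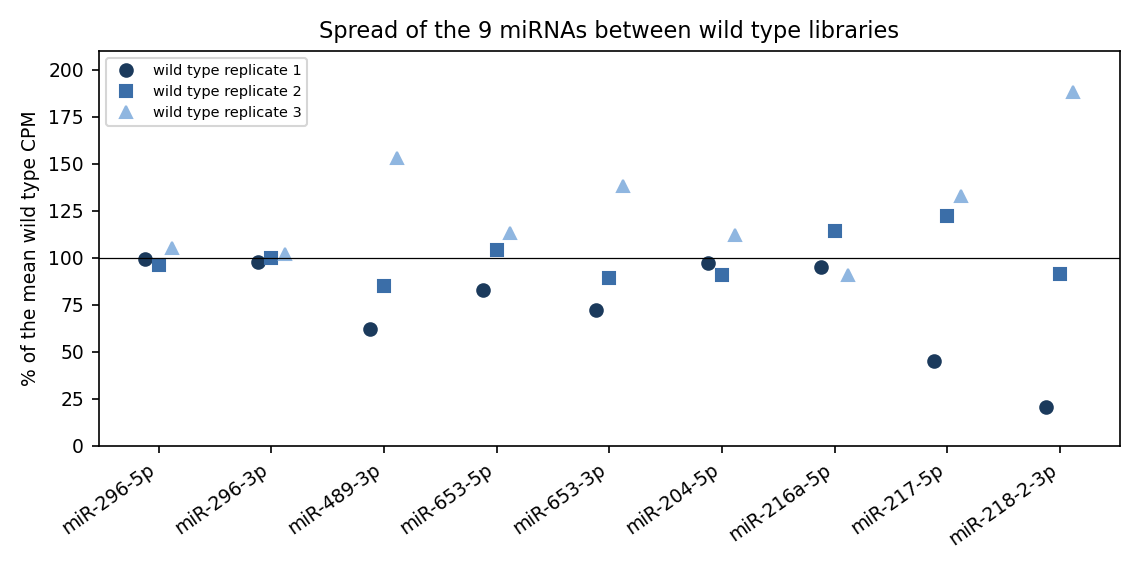
Level of each of the 9 miRNAs in the 3 wild type libraries, as a percentage of its mean wild type CPM. The miR-296 arms lie within 1.09-fold and 1.04-fold, while miR-217-5p spans 2.94-fold and miR-218-2-3p 9.15-fold, with replicate 1 lowest in both.

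Wild type replicate 3 was the highest of the wild type libraries for 8 of the 9 miRNAs, and for 357 of the 826 tested ones (43.2%). Wild type replicate 1 was the lowest for 6 of the 9, and for 33.4% of the tested miRNAs. For the 3 CALCR arms, replicate 1 was lowest and replicate 3 highest in each case. Arms of 1 hairpin or gene share their source, so these are not 9 separate observations.

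Other products of the same loci, and of paralogous loci elsewhere, were taken by name. Of 13 such arms, 6 were listed in the counts and 5 were tested, and the decrease of 1 of them, miR-211-5p, passed the limits, beside the 13.6% of all tested miRNAs. None was called increased by edgeR, beside 16.5% of all tested miRNAs, and miR-218-1-3p, the only one of the 5 with a higher mean in ΔTUT4/7 cells, had an edgeR adjusted p of 0.419 and was not called with DESeq2 either. miR-204-3p, miR-217-3p, miR-489-5p, miR-298, both arms of miR-216b and miR-211-3p are not listed in the counts and so were not analysed.

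miR-211-5p is made from an intron of TRPM1 on chromosome 15, in a hairpin from 31065032 to 31065141, and is known for its abundance in melanocytes. It has the same seed as miR-204-5p and differs from it at 2 of 22 bases, both within the 18 nt that were read.
miR-204-5p: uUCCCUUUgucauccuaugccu
miR-211-5p: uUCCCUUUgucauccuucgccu
miR-211-5p had 1.81, 2.64 and 2.77 CPM in the wild type and 0.197, 0.208 and 0 CPM in the ΔTUT4/7 libraries. The log2 fold change of miR-211-5p was -3.93 (SE 0.71, edgeR adjusted p = 8.97e-04), and the 3 ΔTUT4/7 libraries lay below the 3 wild type ones. With 2 counts in ΔTUT4/7 and 41 in wild type cells, the ratio of pooled rates was 17.9, with a 95% counting interval of 4.64 to 152. Of the counts on both, miR-211-5p took 2.73% in wild type cells (exact 95% binomial interval 1.96% to 3.68%) and 0.943% in ΔTUT4/7 cells (0.114% to 3.37%), intervals that overlap. Whether reads of miR-204-5p with errors add to the counts of miR-211-5p was not tested.

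The hairpins miR-218-1, in SLIT2 on chromosome 4, and miR-218-2 give the same 5p arm, while their 3p arms differ and are offset by 1 base.
miR-218-2-3p: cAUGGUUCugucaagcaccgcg
miR-218-1-3p: aUGGUUCCgucaagcaccaugg
miR-218-5p: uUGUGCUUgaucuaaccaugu
Aligned with this offset, the 3p arms were identical at 18 of 21 bases. Whether reads of either 3p arm were counted for the other was not tested. The shared miR-218-5p was among the most abundant miRNAs, at rank 8 in wild type cells, with 26903 ± 1686 CPM in wild type and 24244 ± 381 CPM in ΔTUT4/7 cells (SD, n = 3 each). Its log2 fold change was -0.15 (SE 0.10, edgeR adjusted p = 0.235), and 0.07 with let-7 and miR-98 removed from the library totals. miR-218-1-3p had 2.27, 1.63 and 2.30 CPM in the wild type and 1.38, 3.95 and 2.99 CPM in the ΔTUT4/7 libraries, so the strains overlapped (log2 fold change 0.45, SE 0.43, edgeR adjusted p = 0.419). Of the counts on the 2 miR-218 3p arms, miR-218-2-3p took 18 of 51 in wild type cells, or 35.3% (exact 95% binomial interval 22.4% to 49.9%). In ΔTUT4/7 cells it took 0 of 40, with an upper bound of 8.81%.

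A second hairpin in SLIT3, miR-585, lies 495345 bases from miR-218-2 on the same strand, from 169263601 to 169263694. miR-585-3p had 37.2, 43.6 and 32.7 CPM in the wild type and 20.9, 20.6 and 18.6 CPM in the ΔTUT4/7 libraries, and the strains did not overlap. The log2 fold change of miR-585-3p was -0.92 (SE 0.20, edgeR adjusted p = 0.00250), under the 2-fold limit, and it passed the limit without wild type replicate 3 (-1.02, edgeR adjusted p = 0.00103). miR-585-5p was rarer, with 2.77 ± 1.19 and 1.22 ± 0.779 CPM in wild type and ΔTUT4/7 cells (SD, n = 3 each), and had a log2 fold change of -1.12 (SE 0.53, edgeR adjusted p = 0.0996).

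**Figure D3:**
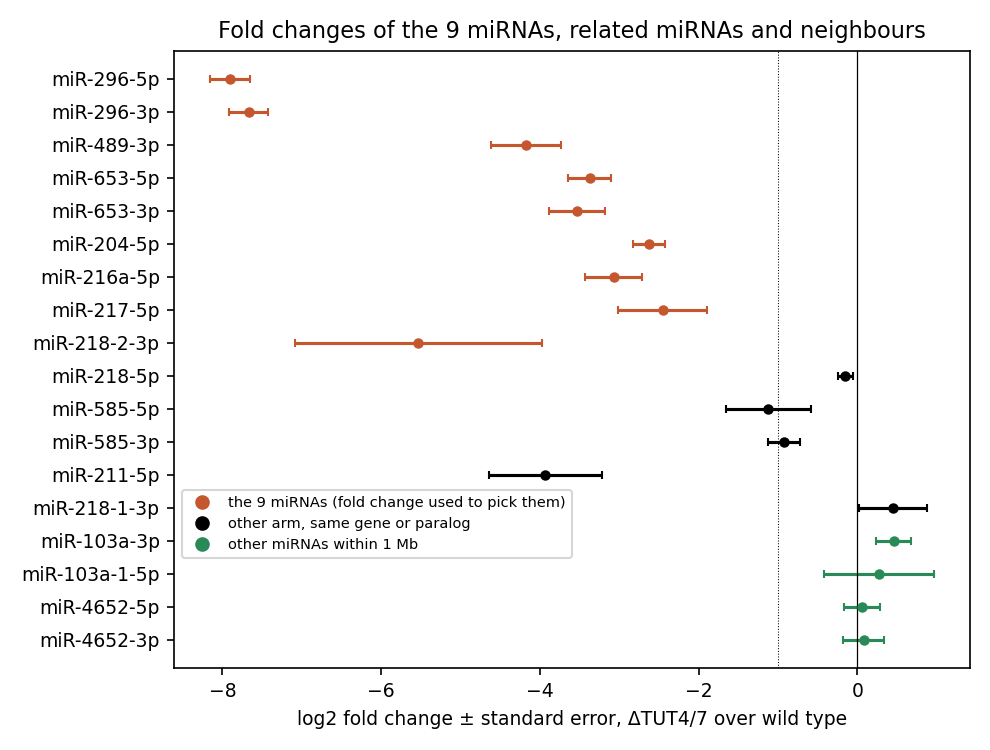
Log2 fold change, ΔTUT4/7 over wild type, with a standard error derived from the edgeR test, for the 9 miRNAs, the 5 tested related arms and 4 other miRNAs within 1 Mb. The dotted line marks a 2-fold decrease. miR-211-5p lies at -3.93, the 2 miR-585 arms lie near the line, and miR-218-5p, miR-218-1-3p and the neighbours lie around 0.

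Neighbours were sought among the 897 of the 1000 listed miRNAs that RefSeq holds. Within 1 Mb of the 7 hairpins, 4 further miRNAs were listed and tested. None was called by edgeR or by DESeq2, beside 30.0% of all tested miRNAs called in either direction by edgeR, and none had an unadjusted p under 0.05. They are arms of the hairpins MIR4652 and MIR103A1 only, too few for a contrast with that share. No such miRNA was found near miR-296, miR-204, miR-216a or miR-217, and listed miRNAs outside RefSeq were not searched. On chromosome 7, miR-4652-5p and miR-4652-3p, 233 kb from miR-489 on the other strand, had log2 fold changes of 0.06 (SE 0.23) and 0.08 (SE 0.26). On chromosome 5, 207 kb from miR-218-2, miR-103a-3p had a log2 fold change of 0.46 (SE 0.22, edgeR adjusted p = 0.112) and miR-103a-1-5p one of 0.27 (SE 0.69). miR-103a-3p has a second copy elsewhere in the genome and the same first 18 bases as miR-107, so its reads cannot be told apart from those of miR-107. With let-7 and miR-98 removed from the totals its log2 fold change was 0.68 (edgeR adjusted p = 0.0249), still under the 2-fold limit. The signs of both miR-4652 arms and of miR-103a-1-5p changed when single libraries were left out.

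The host genes were looked up by name in the study's lists of transcripts that changed in separate RNA sequencing of the same strains, without use of their values. TRPM3 and SLIT3 are in its list of decreased transcripts, as is GNAS-AS1. As annotated, GNAS-AS1 ends short of the miR-296 hairpin on the same strand. Whether its transcript extends to the hairpin was not tested. The lists hold changes of at least 2-fold, and the study counts many more decreased than increased transcripts. The share of all measured transcripts in the decreased list was not worked out, so whether these entries exceed it was not tested. CALCR, MIR217HG, the lncRNA ENSG00000268649 that holds miR-296, and the paralogous hosts TRPM1 and SLIT2 are in neither the list of decreased nor that of increased transcripts. A transcript outside both lists may be unchanged, changed by less than the limit or not measured.

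**Figure D4:**
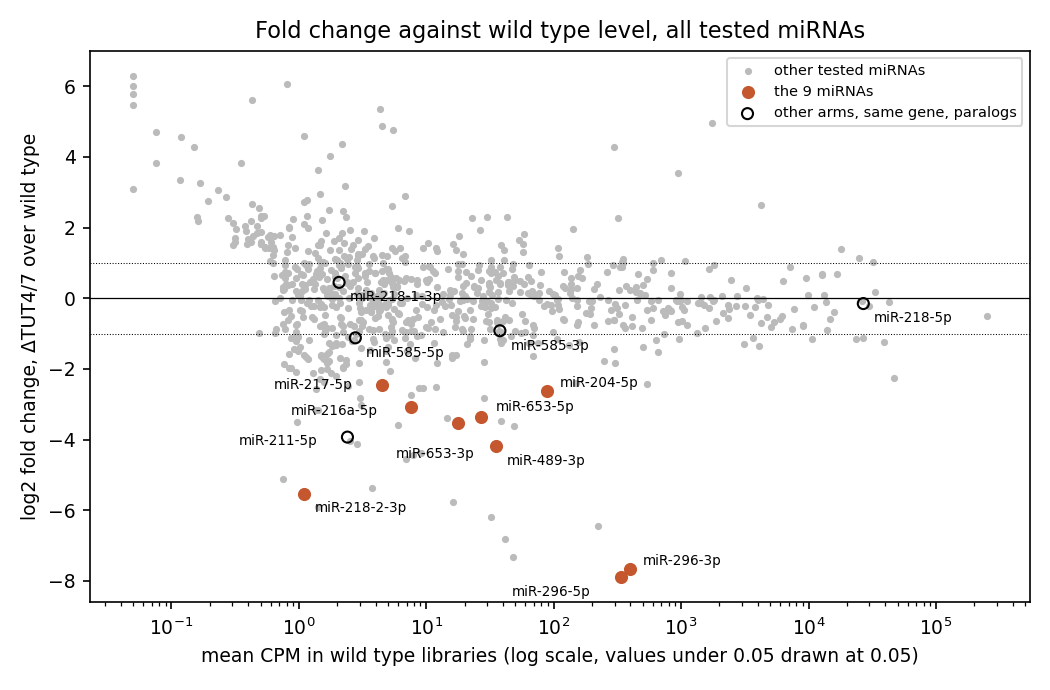
Log2 fold change, ΔTUT4/7 over wild type, against the mean wild type CPM (log scale) of the 826 tested miRNAs, with dotted lines at 2-fold. The 9 miRNAs, filled, lie between fitted values of -2.45 for miR-217-5p and -7.90 for miR-296-5p, with miR-218-2-3p drawn at its fitted -5.53 although only a bound of its change is known, over wild type levels from 1.10 to 396 CPM.

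The rule that picked the 9 has no fixed limit. Of the other tested miRNAs, 30 had a lower fitted value than miR-217-5p, whose fitted decrease was the smallest among the 9, and 11 had a lower one than miR-489-3p. The first among them was miR-196a-1-3p, at rank 3 with a log2 fold change of -7.33 (SE 0.37). At the other end, miR-217-5p was at rank 39, and the next miRNA below it, miR-152-3p at rank 40, had a log2 fold change of -2.43 (SE 0.18).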

How the data were processed

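Small RNA libraries of 3 ΔTUT4/7 and 3 wild type cultures were prepared (QIAseq miRNA Library Kit) and sequenced on a NextSeq 500. Reads shortened to 18 nt were mapped by the authors with Bowtie 1.0.0 against hg38, and they quantified miRBase 22 mature miRNAs in Partek 10.0.22. The deposited values are estimated counts from its expectation-maximization step, all whole numbers. In the wild type libraries the largest count, that of miR-16-5p, is written to 3 digits. Whether molecular identifiers were used is not given in the sources read here. The authors' own comparison (p-values, ratios and strain means) was not used.

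CPM were taken over library totals. Those above 7 counts in any library were tested with edgeR 4.0.16 (R 4.3.3, glmQLFTest, normalization factors of 1, common dispersion 0.0358). The p-values measure the spread between 3 libraries a strain. edgeR gives no standard error here, so each SE was derived as the size of the log2 fold change over the square root of the test's F statistic. Python 3.11.15, pandas 2.3.3 and scipy 1.17.1 gave levels and exact intervals. The figures used matplotlib 3.10.9. Mature sequences and hairpins came from RefSeq, which holds 897 of the 1000 names, and the printed ones matched hg38. Host genes came from GENCODE 44. The members, the related arms, the limit of 1 Mb and the alternatives were chosen with earlier results of these data known. Named are the 9 miRNAs, related arms, neighbours and, for each of the 9, the tested miRNA with the nearest profile. miR-196a-1-3p and miR-152-3p were named after their values were seen. The test was first run on simulated data with known changes.

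Libraries of the same strain varied beyond counting noise (chi-square per degree of freedom 16.0 to 356). Same-numbered libraries of the 2 strains deviated with correlations of -0.17 to -0.10, so they were not treated as pairs. The alternatives were TMM and RLE factors, DESeq2 1.42.0, totals without let-7 and miR-98, limma-trend (limma 3.58.1) on log2(CPM + 1), filterByExpr, no filter, the replicate number as a block, sums over shared first 18 nt, each library left out, and a 2-fold limit alone.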

Additional observations from a re-analysis of the deposited data

How the results depend on the processing

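All 133 log2 fold changes of the 9 miRNAs under the alternatives stayed below 0, and 132 were -1 or lower, the exception being miR-218-2-3p with limma-trend on log2(CPM + 1) (-0.97), where the added 1 nears its wild type level. With limma-trend the median of the 9 moved from -3.53 to -2.87. With 1 library left out it ran from -3.73 to -3.28, and the number of miRNAs called decreased from 93 to 106. With let-7 and miR-98 removed from the library totals, the median over the tested miRNAs shifted by 0.22, 69.3% rather than 54.8% of the calls were increases, and the 9 miRNAs summed to 971 CPM in wild type cells. miR-217-5p and miR-218-2-3p were not tested with filterByExpr. Nor was miR-211-5p, so that 0 related arms were then called. With no filter 2 were called, the second being miR-216a-3p (log2 fold change fitted to a count of 0), and 2 with the 2-fold limit alone, where miR-585-5p was added. With 1 library left out the number was 1 to 2. With the replicate block, 102 miRNAs were decreased and the median of the 9 was -3.52, and no call of a related arm or neighbour changed. The log2 fold change of miR-211-5p ran from -4.28 to -1.58 and stayed called wherever it was tested. Signs turned for miR-218-5p (0.07) with the totals without let-7, and with single libraries left out for miR-4652-5p (-0.12 to 0.22), miR-4652-3p (-0.06 to 0.23) and miR-103a-1-5p (-0.26 to 1.28). At this depth 3 counts over the ΔTUT4/7 libraries are 0.206 CPM, so for miR-218-2-3p and miR-216a-3p only bounds could be given.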

Other observations

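The tested miRNA outside the 9 with the nearest profile was taken for each of them as the smallest Euclidean distance over the 6 libraries, on log2(CPM + 1) minus its wild type mean, among 707 miRNAs with at least 1 CPM in wild type cells. Any miRNA with a like difference between the strains is near by this measure. For both arms of miR-296 it was miR-34c-5p (distance 2.21 for the 5p and 2.05 for the 3p arm), which had 222 ± 47.1 CPM in wild type and 2.53 ± 0.559 CPM in ΔTUT4/7 cells (SD, n = 3 each). For miR-489-3p it was miR-874-3p (0.96), for miR-653-5p miR-4778-3p (0.67) and for miR-653-3p miR-4664-3p (0.73). For miR-204-5p the nearest was miR-34a-3p (0.50), with 150 ± 20.5 CPM in wild type and 28.3 ± 5.06 CPM in ΔTUT4/7 cells (SD, n = 3 each). For miR-216a-5p it was miR-152-3p (0.57), for miR-217-5p miR-31-3p (0.78) and for miR-218-2-3p miR-140-5p (0.47), where the added 1 CPM compresses the difference of the rare miR-218-2-3p.

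One further listed miRNA, miR-6807-3p, shares the seed of miR-217-5p, and it was rarer, with 0.505 CPM in wild type and 1.45 CPM in ΔTUT4/7 cells (log2 fold change 1.53, edgeR adjusted p = 0.0873).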
